A study of Mus musculus with 36 samples.

Results

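The Ifitm genes described here are Ifitm1 (ENSMUSG00000025491.8), Ifitm2 (ENSMUSG00000060591.7) and Ifitm3 (ENSMUSG00000025492.6), 3 of the 37561 gene entries of the deposited tables, taken by their symbols in each of the 6 tables. All 3 passed the filter for testing at each day. They were followed in 36 libraries that fall into 12 groups of 3: LncCPR-KO AB2.2 cells and control AB2.2 cells, AB2.2 being a mouse embryonic stem cell line, each at days 0, 3, 5, 8, 10 and 12. Day 0 is undifferentiated culture with serum and the cytokine LIF, and the later days are whole embryoid bodies, aggregates grown in hanging drops after LIF was withdrawn, in both lines. The knockout removed the long noncoding RNA gene LncCPR with Cas9 and a guide on either side of it, after which cells were sorted singly and lines with the deletion were expanded. How many such lines the 18 knockout libraries come from is not stated, nor whether the 3 libraries of a group are separate cultures, so p-values measure the spread between these libraries. The deleted gene itself was not analysed here. Pou5f1, which defines pluripotent cells, had 597.5 ± 12.9 FPKM in knockout and 505.4 ± 13.7 FPKM in control at day 0.

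IFITM proteins are small membrane proteins of the cell surface and endosomes that hinder enveloped viruses from fusing with the cell. Interferons raise them in most cell types, while pluripotent cells also make them without interferon. In the mouse embryo Ifitm3, also called fragilis, and Ifitm1 mark the proximal epiblast in which germ cells are founded, and Ifitm1 is also transcribed in the primitive streak and early mesoderm.

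The 3 genes lie in a single cluster on mouse chromosome 7. The 250 bases before each RefSeq start (build GRCm38.p6) are shown because the genes did not behave alike in these libraries, and because interferon acts through short elements near such starts. Capitals mark matches to the core of the interferon-stimulated response element, read as GAAA, any 2 bases and GAAA again, on either strand.
Ifitm1: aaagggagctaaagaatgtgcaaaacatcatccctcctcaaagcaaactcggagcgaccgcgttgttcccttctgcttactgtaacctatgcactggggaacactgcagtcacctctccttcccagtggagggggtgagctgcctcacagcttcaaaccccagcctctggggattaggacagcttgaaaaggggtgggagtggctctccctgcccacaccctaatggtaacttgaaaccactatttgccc
Ifitm2: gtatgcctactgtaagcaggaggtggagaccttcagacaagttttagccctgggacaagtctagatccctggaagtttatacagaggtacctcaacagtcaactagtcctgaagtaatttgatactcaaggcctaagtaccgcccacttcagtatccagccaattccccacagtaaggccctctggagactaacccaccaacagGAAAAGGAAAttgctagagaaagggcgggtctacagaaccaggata
Ifitm3: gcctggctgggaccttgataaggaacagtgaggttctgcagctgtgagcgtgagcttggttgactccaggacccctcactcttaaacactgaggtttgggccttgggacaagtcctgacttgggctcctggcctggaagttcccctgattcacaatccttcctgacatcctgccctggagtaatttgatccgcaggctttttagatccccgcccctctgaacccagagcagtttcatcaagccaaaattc
These stretches are chr7:140967826-140968075 on the plus strand for Ifitm1, chr7:140955962-140956211 on the minus strand for Ifitm2 and chr7:141010745-141010994 on the minus strand for Ifitm3.

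Ifitm2 held 1 match, at bases -46 to -37 from its start, and Ifitm1 held 0 matches, counting also the 50 bases past the start. The 2 matches of Ifitm3 lie past the start, at bases 3 to 12 and 20 to 29, and between them TTCNNNGAA, the site of the STAT factors, matches at 14 to 22 and overlaps the second of them. The 30 bases around them (chr7:141010714-141010743, minus strand, capitals for matches to either motif) read as follows.
Ifitm3 site: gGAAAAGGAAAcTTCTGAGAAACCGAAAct
Of 32851 RefSeq windows with the same 250 bases before and 50 bases past a start, 3.44% held the response element core and 8.3% held TTCNNNGAA on either strand. Ifitm2 and Ifitm3 shared 5 words of 10 bases in the 250 bases shown and a longest run of 11 bases, whereas Ifitm1 shared 0 such words with either.

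The transcripts are relatives, so reads could be assigned to the wrong member. In the GENCODE M21 transcripts, 3.3% of the 50-base words of Ifitm2 were also in Ifitm3, 2.38% of those of Ifitm3 were also in Ifitm1, and 0 of those of Ifitm2 were in Ifitm1. At 100 bases the members shared 0 words with each other. Gm45717, a gene model outside the family list that was not analysed here, held 36.1% of the 50-base words of Ifitm2 and 30.4% of its 100-base words, 3.18% of the 50-base words of Ifitm3, and 0 of those of Ifitm1. The fragment length and the handling of ambiguous reads are not given in the sources used here, so the Ifitm2 values in particular are uncertain in every library.

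Values are deposited FPKM, which adjust fragment numbers for the length of a transcript and the size of its library. Libraries summed to between 294740 and 403675 FPKM, 11248 to 13183 genes lay above 1 FPKM, and the top 10 genes took 11.3% to 30.3% of a library. Absolute depth is unknown. Relative to control replicate 1 at day 0, depth read from rarely seen genes ran from 0.562 to 1.83, with as few as 10 genes at the shared ratio. At day 3, control replicate 1 had the lowest sum of all libraries and also the lowest value of that day for each of the 3 genes. Means carry the SD of 3 libraries. A log2 fold change is the knockout mean minus the control mean of log2(FPKM + 1), given with its standard error (SE). Tests are limma's moderated test within a day, adjusted by Benjamini-Hochberg over all genes tested, with 0.05 as threshold. Exact permutation of 3 against 3 libraries cannot reach a p below 0.1. FPKM is relative to the library, and the median log2 fold change of all genes was 0.15 at day 3, 0.13 at day 5 and 0.17 at day 10, so a gene at 0 on those days lay below most others. Rescaling the libraries to a common median ratio turned the split of called genes: at day 10, 1946 were higher and 663 lower as deposited, but 1104 and 1606 after rescaling. The splits were 130 and 80 against 216 and 337 at day 3, 880 and 413 against 634 and 874 at day 5, and 422 and 456 against 302 and 692 at day 12.

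Among the family members with an entry under their symbol, the 3 genes were the expressed ones. Ifitm10, also listed, had no such entry, so its level is unknown. Ifitm2 was the most abundant by median, ranging from 25.7 to 78.2 FPKM over the 36 libraries with a median of 45.4. Ifitm1 ranged from 5.51 to 62.8 FPKM with a median of 22.5, and Ifitm3 from 5.21 to 58.0 FPKM with a median of 13.3. Ifitm5, a bone gene, reached no more than 0.787 FPKM, Ifitm7 no more than 0.692 FPKM, and Ifitm6 was listed at 0 in 30 libraries and at 0.422 FPKM or less in the others. None of these 3 reached a day mean of 1 FPKM, the minimum for a test.

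The members ran different courses over the days. Ifitm3 in the knockout line averaged 29.5 ± 1.14 FPKM (day 0), 33.0 ± 4.44 (day 3), 12.8 ± 3.23 (day 5), 11.3 ± 0.233 (day 8), 13.5 ± 2.84 (day 10) and 11.7 ± 1.14 (day 12). In the control line it began much higher, in undifferentiated cells, and then sank lower, at 51.0 ± 6.11 FPKM (day 0), 29.3 ± 11.4 (day 3), 7.41 ± 0.615 (day 5), 6.23 ± 0.952 (day 8), 6.85 ± 1.59 (day 10) and 15.2 ± 2.32 (day 12). The highest of these day means was 2.91 times the lowest in knockout and 8.19 times the lowest in control. Ordered by mean, control at day 0 stood clear of the next group, knockout at day 3, which overlapped knockout at day 0 and, next in order, control at day 3. The 3 lowest groups were control at days 5, 10 and 8, which overlapped in that order and lay clear of every knockout group. Levels of different days come from tables that may have been scaled apart, so they are described and were not tested.

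Ifitm1 had a peak at day 5 in control that knockout lacked. In knockout it averaged 44.1 ± 5.10 FPKM (day 0), 36.5 ± 5.79 (day 3), 35.1 ± 4.55 (day 5), 16.7 ± 2.17 (day 8), 20.0 ± 4.43 (day 10) and 15.8 ± 0.801 (day 12). In control it averaged 33.0 ± 3.28 FPKM (day 0), 22.6 ± 6.78 (day 3), 55.2 ± 6.55 (day 5), 16.5 ± 2.29 (day 8), 8.58 ± 4.14 (day 10) and 14.5 ± 5.26 (day 12). Control at day 5 was the highest of the 12 groups and did not overlap the next, knockout at day 0. Knockout at days 3 and 5 and control at day 0 followed, each overlapping its neighbour in the order. Control at day 3 opened the lower part of the order, whose groups overlapped their neighbours down to control at day 10, the lowest.

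Ifitm2 varied least. In knockout it had 72.6 ± 6.74 FPKM at day 0 and between 40.3 ± 5.10 (day 12) and 47.8 ± 4.56 FPKM (day 5) afterwards. In control it had 72.7 ± 5.22 FPKM at day 0 and between 32.1 ± 4.59 (day 10) and 51.5 ± 4.68 FPKM (day 5) afterwards. Both day 0 groups overlapped and lay clear of the other 10 groups, each of which overlapped its neighbour in the order. Its highest day mean was 1.80 times its lowest in knockout and 2.27 times in control. Over the 36 libraries the members correlated at Pearson r = 0.64 for Ifitm1 and Ifitm2, r = 0.57 for Ifitm2 and Ifitm3 and r = 0.41 for Ifitm1 and Ifitm3 on the log2 scale, where the points share days, lines and tables.

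**Figure D1:**
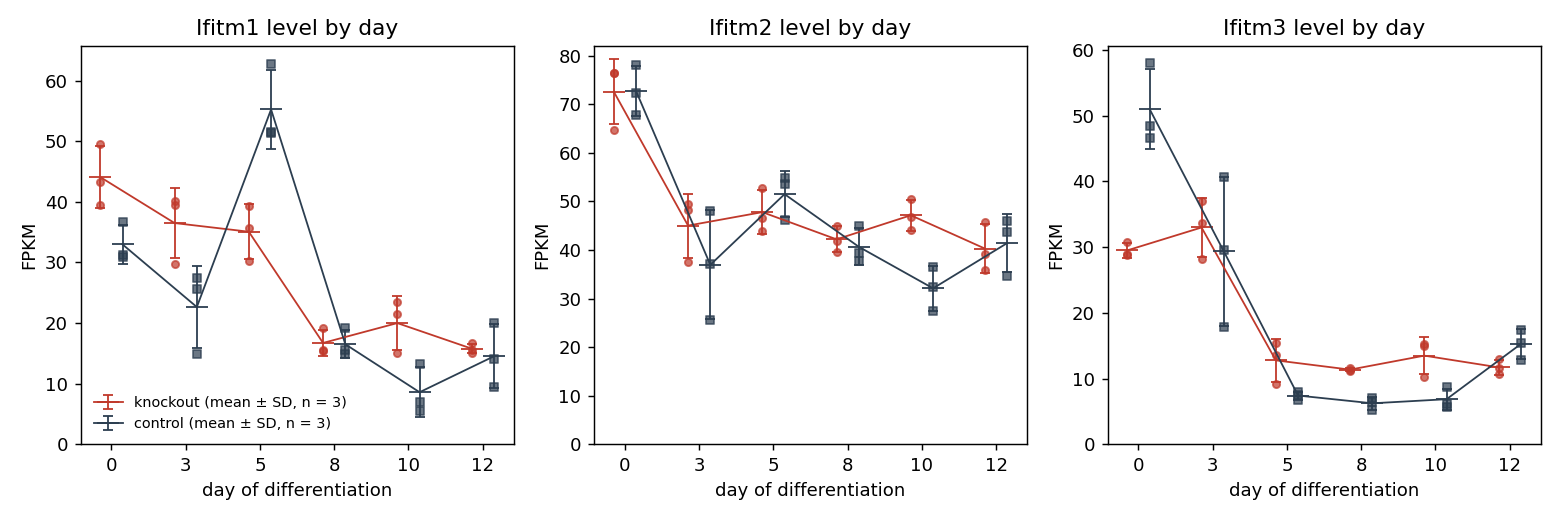
FPKM of Ifitm1, Ifitm2 and Ifitm3 at each day of differentiation, with a point per library and the mean ± SD of 3 libraries per group, knockout in red and left of control in dark blue. At day 5 the knockout mean of Ifitm1 is 35.1 FPKM and the control mean, the peak of that line, 55.2 FPKM. Ifitm3 starts at 29.5 FPKM in knockout, below 51.0 FPKM in control, and lies above control at days 5, 8 and 10.

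Stem cells at day 0 differed in 2 of the 3 genes, in opposite directions. Ifitm3 had 30.8, 28.9 and 28.8 FPKM in the 3 knockout libraries, against 46.6, 48.5 and 58.0 FPKM in the 3 control libraries. The groups did not overlap, and the knockout libraries lay close together. Ifitm3 fell by 0.76 on the log2 scale (SE 0.087, 95% interval -0.96 to -0.56, limma adjusted p = 0.00238), which is percentile 1.24 of the fold changes of all genes. Ifitm1 had 49.5, 39.4 and 43.2 FPKM in knockout, against 36.7, 31.3 and 30.8 FPKM in control, again with no overlap (log2 fold change 0.41, SE 0.0998, adjusted p = 0.0339). This call ended in 4 of the 6 fits that left out 1 library, without knockout replicate 1 or 3 or control replicate 2 or 3, with adjusted p between 0.0324 and 0.104 over the 6. Ifitm2 was alike in mean at 72.6 FPKM in knockout and 72.7 FPKM in control, with a 95% interval of -0.20 to 0.19 for the log2 fold change (adjusted p = 0.981). Over all genes, 14.5% passed the threshold at day 0, 6.49% as higher and 8.03% as lower, and 36.5% had groups that did not overlap.

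At day 3 none of the 3 genes passed the limma threshold (adjusted p = 0.252, 0.733 and 0.797 for Ifitm1, Ifitm2 and Ifitm3, of which 1, Ifitm1, had an unadjusted p under the threshold), on a day when 1.75% of all genes passed, 1.09% as higher and 0.668% as lower. Ifitm1 had 39.5, 29.8 and 40.2 FPKM in knockout, against 14.9, 27.5 and 25.6 FPKM in control, and the groups did not overlap, as for 17.5% of genes. Its log2 fold change was 0.70 (SE 0.26, 95% interval 0.16 to 1.24). Ifitm3 had 28.2, 33.7 and 37.0 FPKM in knockout, against 17.9, 29.5 and 40.6 FPKM in control, which overlapped (log2 fold change 0.23, 95% interval -0.33 to 0.78). Its sign turned without control replicate 1 (-0.077). Ifitm2 had 48.2, 49.4 and 37.5 FPKM in knockout, against 25.7, 37.0 and 48.1 FPKM in control (log2 fold change 0.31, 95% interval -0.23 to 0.86). The intervals at this day are the widest of the 6 days for Ifitm1, Ifitm2 and Ifitm3.

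At day 5, when T, the factor of the primitive streak, had its highest mean of the 6 days in both lines, Ifitm1 and Ifitm3 again differed in opposite directions, now with Ifitm1 lower and Ifitm3 higher. Ifitm1 had 39.3, 30.2 and 35.7 FPKM in knockout, against 51.4, 51.5 and 62.8 FPKM in control. Every knockout library lay below every control library, and Ifitm1 fell by 0.64 on the log2 scale (SE 0.13, 95% interval -0.93 to -0.35, limma adjusted p = 0.0117). All 6 fits that left out 1 library kept the call, with adjusted p from 0.0123 to 0.0474. Ifitm3 had 15.5, 9.18 and 13.6 FPKM in knockout, against 6.79, 8.02 and 7.42 FPKM in control, with no overlap (log2 fold change 0.68, SE 0.166, adjusted p = 0.0248). That call ended in 4 of the 6 fits that left out 1 library (without knockout replicate 1 or 3, or control replicate 1 or 3) and after rescaling of libraries to a common median ratio, where the log2 fold change was 0.55 and adjusted p = 0.0556. Ifitm2 had 44.0, 46.5 and 52.9 FPKM in knockout, against 46.1, 54.8 and 53.6 FPKM in control, with a 95% interval of -0.37 to 0.16. At this day 10.4% of all genes passed and 33.9% had no overlap.

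At days 8 and 10 Ifitm3 stayed higher in knockout embryoid bodies. At day 8 it had 11.1, 11.6 and 11.3 FPKM in knockout, against 7.10, 5.21 and 6.38 FPKM in control, with no overlap (log2 fold change 0.78, SE 0.15, 95% interval 0.45 to 1.12, limma adjusted p = 0.0213). The call ended in 4 of the 6 fits that left out 1 library (without replicate 1 or 2 of knockout, or 2 or 3 of control), with log2 fold changes from 0.68 to 0.87. Ifitm1 and Ifitm2 overlapped between the lines at day 8, with 15.6, 15.3 and 19.2 FPKM in knockout, against 19.1, 14.8 and 15.6 FPKM in control, for Ifitm1. For Ifitm2 the values were 41.9, 44.99 and 39.7 FPKM in knockout, against 44.9, 39.3 and 37.8 FPKM in control. Their 95% intervals were -0.32 to 0.36 and -0.23 to 0.34. At day 8, 3.28% of all genes passed and 22.7% had no overlap.

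Day 10 was the only day of the 6 at which all 3 genes passed the threshold, each higher in knockout. Ifitm1 had 15.0, 23.5 and 21.5 FPKM in knockout, against 13.3, 6.94 and 5.51 FPKM in control. The highest control library came close to the lowest knockout library without reaching it, and the log2 fold change was 1.19 (SE 0.25, limma adjusted p = 0.00561). Without control replicate 3 it was 0.95 with adjusted p = 0.0520. Ifitm3 had 14.9, 10.2 and 15.3 FPKM in knockout, against 5.71, 8.67 and 6.17 FPKM in control, with no overlap (log2 fold change 0.88, SE 0.184, adjusted p = 0.00605). Ifitm2 had 50.5, 44.1 and 46.9 FPKM in knockout, against 32.4, 36.5 and 27.4 FPKM in control, with no overlap (log2 fold change 0.55, SE 0.141, adjusted p = 0.0173). Without knockout replicate 1 the Ifitm2 call ended, at adjusted p = 0.0638. Control replicate 3 had the lowest control value of Ifitm1 and Ifitm2 at this day, and its 10 most abundant genes held 30.3% of its summed FPKM, the highest share of the 36; the part of this in the result was not tested. Day 10 is also the day on which the most genes moved: 20.2% of all genes passed, 15% as higher and 5.12% as lower, and 40.4% had no overlap. After rescaling of libraries the log2 fold changes were 1.00 for Ifitm1, 0.69 for Ifitm3 and 0.34 for Ifitm2, all 3 past the threshold.

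At day 12 no member passed, and the groups of all 3 overlapped. Ifitm3 had 10.6, 12.9 and 11.5 FPKM in knockout, against 17.5, 12.8 and 15.5 FPKM in control, with 1 control library inside the knockout range. Its log2 fold change was -0.35 (95% interval -0.66 to -0.042, limma adjusted p = 0.160). Ifitm1 had 15.1, 16.6 and 15.6 FPKM in knockout, against 14.0, 20.0 and 9.50 FPKM in control, which spread far more widely. Ifitm2 had 45.8, 39.2 and 35.8 FPKM in knockout, against 43.7, 34.7 and 45.9 FPKM in control. Their 95% intervals were -0.31 to 0.65 and -0.34 to 0.27, and adjusted p was 0.674 and 0.895. Here 6.71% of all genes passed and 30% had no overlap.

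**Figure D2:**
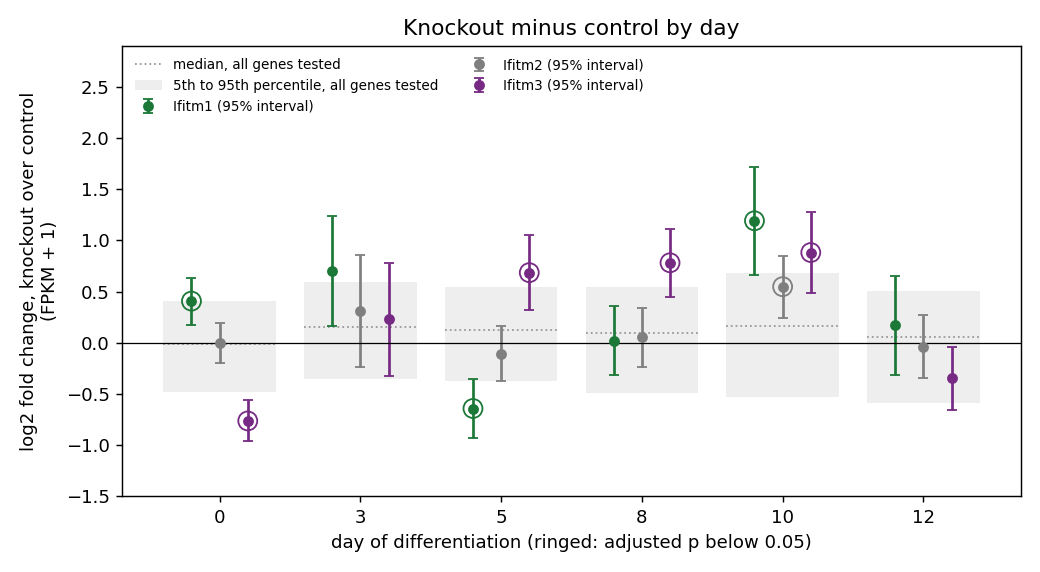
Knockout minus control difference in log2(FPKM + 1) for each gene and day, with 95% intervals, ringed where adjusted p was below 0.05. Grey bars span the 5th to 95th percentile of all genes tested and dotted lines their median. Ifitm3 lies at -0.76 at day 0 and between 0.68 and 0.88 at days 5, 8 and 10, Ifitm1 lies at 0.41 (day 0), -0.64 (day 5) and 1.19 (day 10), and Ifitm2 is ringed at day 10 alone.

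Whether the knockout effect was equal at all days was tested with a limma F test over the 6 days in all 36 libraries, in which the scaling of a whole table cancels. The test asks for unequal effects, and a change of sign was not tested by itself. The knockout effect differed between days for Ifitm3 (F = 11.2, adjusted p = 0.000112) and for Ifitm1 (F = 7.10, adjusted p = 0.00254), and 17.1% of all genes passed this test. Both calls were kept in each of the 36 fits that left out 1 library. Ifitm2 did not pass (F = 2.56, adjusted p = 0.162), but passed without control replicate 3 at day 3 (adjusted p = 0.0323) and after rescaling (adjusted p = 0.0150). The mean knockout effect over the 6 days was a log2 fold change of 0.31 for Ifitm1 (SE 0.096, adjusted p = 0.0124, higher by mean at 5 of 6 days). It was 0.24 for Ifitm3 (SE 0.082, adjusted p = 0.0200, higher at 4 of 6 days) and 0.13 for Ifitm2 (SE 0.064, adjusted p = 0.114, higher at 3 of 6 days). On this mean 38.1% of all genes passed, 28.9% as higher and 9.18% as lower, and the median of all genes was 0.089. Rescaling turned that split to 1939 higher and 2815 lower, against 3760 and 1195 as deposited. With it the calls for Ifitm1 and Ifitm3 ended (log2 fold changes 0.19 and 0.13, adjusted p = 0.0987 and 0.124).

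The ratio of Ifitm1 to Ifitm3 within a library does not depend on how that library was scaled. In knockout it averaged 1.49 ± 0.122 (day 0), 1.12 ± 0.259 (day 3), 2.82 ± 0.414 (day 5), 1.47 ± 0.197 (day 8), 1.57 ± 0.664 (day 10) and 1.35 ± 0.0630 (day 12). In control it spanned a wider range, at 0.656 ± 0.129 (day 0), 0.797 ± 0.154 (day 3), 7.49 ± 1.02 (day 5), 2.66 ± 0.202 (day 8), 1.34 ± 0.855 (day 10) and 0.992 ± 0.50 (day 12). At day 5 the knockout libraries ran from 2.54 to 3.29 and the control libraries from 6.42 to 8.46. At day 0 they ran from 1.37 to 1.61 in knockout and from 0.532 to 0.789 in control, so the lines lay apart on both days and in opposite orders. At day 8 they ran from 1.32 to 1.70 in knockout and from 2.44 to 2.84 in control, apart in the order of day 5. At days 3, 10 and 12 the lines overlapped. The 3 genes together summed to 146 ± 12.0 FPKM in knockout and 157 ± 8.92 FPKM in control at day 0, and to 80.6 ± 2.92 FPKM in knockout and 47.5 ± 7.36 FPKM in control at day 10.

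**Figure D3:**
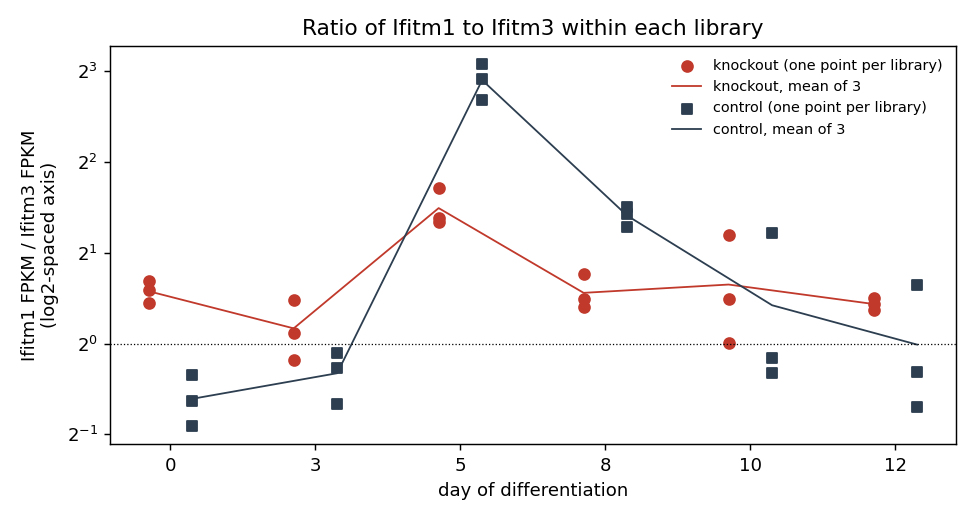
Ratio of Ifitm1 FPKM to Ifitm3 FPKM in each of the 36 libraries on a log2-spaced axis, with lines through the means of 3, knockout in red and left of control in dark blue. At day 0 knockout libraries lie between 1.37 and 1.61 and control libraries between 0.532 and 0.789. At day 5 knockout libraries lie between 2.54 and 3.29 and control libraries between 6.42 and 8.46.

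Interferon-stimulated genes were set beside the family because interferon is its best known inducer. Of the 31 listed, 30 had an entry and 13 to 23 were tested per day. At day 0, 2 were higher and 1 lower of 13 tested, against 6.49% higher and 8.03% lower among all genes, the antiviral sensor gene Oas1a (log2 fold change 0.65, limma adjusted p = 0.00882) and the ubiquitin ligase gene Trim25 (0.37, adjusted p = 0.0406) being higher, and B2m, the light chain of class I molecules, lower (-0.59, adjusted p = 0.00853). Trim25 did not pass after rescaling (adjusted p = 0.0549). At day 3, when no Ifitm gene passed, 6 of 15 were higher and 0 lower, against 1.09% and 0.668% of all genes, with a median log2 fold change of 0.55 against 0.15 for all genes. Ifitm1 lay at 0.70 that day, Ifitm2 at 0.31 and Ifitm3 at 0.23, and whether they differed from the list was not tested. The count of higher listed genes was 4 to 6 with any 1 library left out, and 0 without the filter on low values, when 2 of all genes passed. Among them, Psmb8, an immunoproteasome subunit, had 15.98 ± 1.77 FPKM in knockout and 3.82 ± 1.18 FPKM in control. Gbp2, a guanylate-binding protein of the interferon gamma response, had 6.44 ± 0.951 FPKM in knockout and 1.64 ± 0.579 FPKM in control (log2 fold change 1.51, SE 0.23, adjusted p = 0.000117). Oasl2 (1.55) and Ifi35 (1.41), which interferon raises in many cells, were higher too.

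At days 5, 8 and 10 fewer of the list passed. At day 5, 4 of 16 were higher and 0 lower, at day 8, 3 of 16 and 0, and at day 10, 3 of 17 and 1, against backgrounds of 7.07%, 1.28% and 15% higher and 3.32%, 2% and 5.12% lower among all genes. After rescaling, 4 were higher and 1 lower at day 5, and 3 higher and 4 lower at day 10. Gbp2 was higher at each of these days, with log2 fold changes of 1.05, 1.42 and 1.16. Its relative Gbp3 (1.00) and Oasl2 (0.76) were higher at day 5, Bst2, a membrane protein that tethers viruses, at day 5 (0.50) and day 8 (0.95), Psmb8 at day 8 (1.55) and day 10 (1.23), and the peptide transporter gene Tap1 at day 10 (0.92). The lower gene of day 10 was Ifit1, an antiviral effector (-0.75, limma adjusted p = 0.0197), with 0.565 ± 0.271 FPKM in knockout and 1.61 ± 0.219 FPKM in control. With a knockout mean under 1 FPKM, Ifit1 met the minimum for a test through control. Irf1, a transcription factor that interferon gamma induces, had 63.8 ± 8.74 FPKM in knockout and 40.1 ± 5.11 FPKM in control at day 5. At day 8 it had 29.97 ± 3.74 FPKM in knockout and 13.8 ± 1.08 FPKM in control, and at day 10, 26.1 ± 2.86 FPKM in knockout and 14.4 ± 3.89 FPKM in control (log2 fold changes 0.66, 1.06 and 0.84, limma adjusted p = 0.013, 0.00261 and 0.0075). Ifitm3 was higher in knockout at these days too, and whether the 2 genes moved together over the days was not tested. The log2 fold change of Ifitm3 at day 3 was 0.23 (SE 0.27), a spread that leaves its direction undecided. At day 3, when Ifitm3 did not pass under either scaling, Irf1 had 73.1 ± 6.95 FPKM in knockout and 42.9 ± 14.3 FPKM in control, with a log2 fold change of 0.81 that did not pass as deposited (limma adjusted p = 0.173) and passed after rescaling (0.65, adjusted p = 0.0202). At day 0, where Ifitm3 fell, Irf1 did not pass, with 11.3 ± 1.07 FPKM in knockout and 11.7 ± 0.829 FPKM in control, nor did it at day 12, with 16.4 ± 1.10 FPKM in knockout and 16.9 ± 2.42 FPKM in control.

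At day 12 more of the list was lower than higher: 1 of 23 was higher and 7 lower, against 3.22% higher and 3.48% lower among all genes, and the median log2 fold change was -0.35 against 0.054. Each of the 6 fits that left out 1 library gave fewer lower genes, between 4 and, without knockout replicate 3, 0. The antiviral effector genes Ifi44 (-1.19), Ifit1 (-1.15), Oasl2 (-1.10) and Ifit3 (-0.98) were lower in knockout, and Ifit1 had 0.622 ± 0.102 FPKM in knockout and 2.67 ± 0.911 FPKM in control. Ifi44 (0.854 FPKM), Ifit1 and Ifit3 (0.510 FPKM) averaged under 1 FPKM in knockout, while Oasl2 averaged 1.64 FPKM. Those under 1 FPKM met the minimum for a test through control, as did others of the lower genes. The count of lower genes therefore rests in part on the filter. Of the 17 listed genes of interferon receptors and signalling, 0 were higher and 1 lower of 12 tested (day 0), 0 and 0 of 12 (day 3), 1 and 2 of 15 (day 5), 1 and 0 of 16 (day 8), 1 and 1 of 16 (day 10), and 0 and 1 of 16 (day 12). Among all genes the shares higher and lower were 6.49% and 8.03% (day 0), 1.09% and 0.668% (day 3), 7.07% and 3.32% (day 5), 1.28% and 2% (day 8), 15% and 5.12% (day 10), and 3.22% and 3.48% (day 12). After rescaling the signalling list had 1 higher and 0 lower at day 3, 1 and 5 at day 10, and 0 and 2 at day 12. The gene lower at day 0 was Socs3, a feedback inhibitor of LIF and interferon signalling (-0.27, limma adjusted p = 0.0231), and at day 5 the receptor chain gene Ifnar2 (-0.53) and Usp18, a brake on its signal (-0.66), were lower. The other receptor chain, Ifnar1, lay at 16.4 ± 0.622 FPKM in knockout and 17.4 ± 1.19 FPKM in control at day 5. Usp18 had 0.667 ± 0.0345 FPKM in knockout and 1.64 ± 0.0282 FPKM in control that day, and met the minimum for a test through control.

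**Figure D4:**
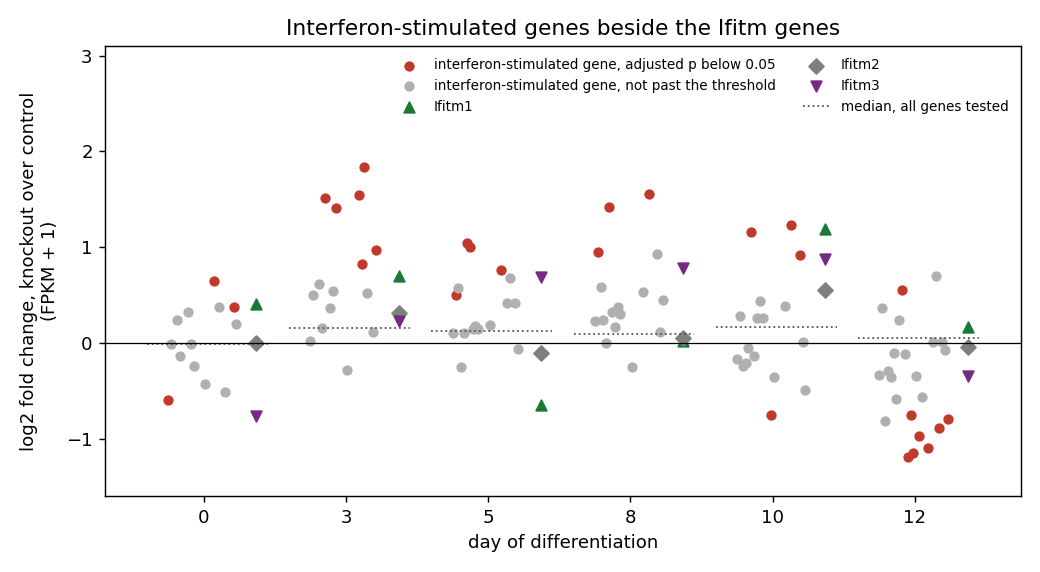
Knockout minus control difference in log2(FPKM + 1) for each listed interferon-stimulated gene tested at a day (red, adjusted p below 0.05; grey, not), with Ifitm1, Ifitm2 and Ifitm3 at the right of each day and a dotted line at the median of all genes. At day 3, 6 of 15 listed genes are red and above 0. Ifitm1 (0.70), Ifitm2 (0.31) and Ifitm3 (0.23) lie above 0 too at day 3, without passing. At day 12, 7 of 23 listed genes are red and below 0. Ifi44, Ifit1 and Ifit3 among them averaged under 1 FPKM in knockout and were tested through their control level.

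Genes that mark the tissues in which Ifitm1 and Ifitm3 are known moved as well, and their part in the Ifitm values was not tested. In whole embryoid bodies, fewer cells of a type and less RNA per cell cannot be told apart. At day 5, where Ifitm1 was lower, 4 of 11 tested streak and early mesoderm genes were lower and 2 higher, against 3.32% lower and 7.07% higher among all genes. The mesoderm receptor genes Kdr (0.927 ± 0.0757 FPKM in knockout and 19.4 ± 2.33 FPKM in control) and Pdgfra (3.42 ± 0.539 FPKM in knockout and 21.8 ± 1.17 FPKM in control) and the cardiac mesoderm factor gene Mesp1 were among the lower ones. T, the streak factor, was higher, with 125 ± 8.44 FPKM in knockout and 64.2 ± 15.6 FPKM in control. Over the whole list of 14 genes the summed level overlapped at day 5, at 311 to 332 FPKM in knockout and 258 to 337 FPKM in control. At days 0, 3, 8, 10 and 12 the list had 0, 0, 2, 5 and 0 genes higher and 0, 1, 2, 2 and 2 lower, of 1, 3, 9, 8 and 7 tested, where all genes had 6.49%, 1.09%, 1.28%, 15% and 3.22% higher and 8.03%, 0.668%, 2%, 5.12% and 3.48% lower. After rescaling 0 were higher and 2 lower of 4 tested at day 3, 2 and 5 of 11 at day 5, and 4 and 2 of 8 at day 10.

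Among the 13 germ cell founder genes with an entry, most of which stem cells also express, Dppa3, a germ cell and naive stem cell marker, was lower at day 0 together with Ifitm3. Dppa3 had 1.23 ± 0.172 FPKM in knockout and 11.4 ± 1.49 FPKM in control, and Prdm1, the factor that founds the germ line, had 1.01 ± 0.0553 FPKM in knockout and 2.33 ± 0.484 FPKM in control (log2 fold change -0.71, limma adjusted p = 0.017). Prdm1 was lower again at day 5 (-0.85, adjusted p = 0.00703), with Ifitm1 and not with Ifitm3. The list had 3 higher and 2 lower of 12 tested at day 0, against 6.49% and 8.03% of all genes. Dppa3 and Prdm1 were the 2 lower ones. The 3 higher ones included germ cell genes besides Pou5f1, which are not reported here. So the list did not fall as a whole with Ifitm3 at day 0. Its median log2 fold change was 0.064, against -0.0091 for all genes. At day 5 the list had 2 higher and 1 lower of 10, against 7.07% and 3.32%. Pou5f1 was higher in knockout at day 0 (log2 fold change 0.24, limma adjusted p = 0.0224), where Ifitm3 was lower, and also at the days of higher Ifitm3, with 341 ± 18.8 FPKM in knockout and 158 ± 16.9 FPKM in control at day 5, 82.6 ± 23.4 FPKM in knockout and 26.0 ± 1.72 FPKM in control at day 8, and 53.6 ± 7.26 FPKM in knockout and 15.8 ± 4.42 FPKM in control at day 10. The list's summed level at day 10 was 200.5 to 225 FPKM in knockout and 96.0 to 117 FPKM in control. It had 0 and 0 of 11 tested past the threshold at day 3, 2 higher and 0 lower of 8 at day 8, 5 and 0 of 8 at day 10, and 0 and 0 of 8 at day 12, against 1.09% and 0.668%, 1.28% and 2%, 15% and 5.12%, and 3.22% and 3.48% of all genes at these days. Rescaling gave 0 higher and 3 lower at day 3, which were the pluripotency factor gene Nanog (-0.97, adjusted p = 0.0028), the alkaline phosphatase gene Alpl (-0.41, adjusted p = 0.0394) and the receptor gene Kit (-0.54, adjusted p = 0.0494). It gave 3 and 3 at day 0, 2 and 3 at day 5, and 4 and 0 at day 10.

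Markers of other cells that make IFITM proteins were counted as well, and their part in the Ifitm values was not tested. The shares of all genes to set beside these counts are 6.49% higher and 8.03% lower (day 0), 1.09% and 0.668% (day 3), 7.07% and 3.32% (day 5), 1.28% and 2% (day 8), 15% and 5.12% (day 10), and 3.22% and 3.48% (day 12). The 9 fibroblast and mesenchyme markers had 0 higher and 7 lower of 8 tested at day 10, when all 3 Ifitm genes were higher, and 0 and 7 of 9 at day 12. Dcn, a matrix proteoglycan, had 0.814 ± 0.0975 FPKM in knockout and 6.69 ± 1.68 FPKM in control at day 10, and the list summed to 468 to 539 FPKM in knockout and 629 to 903 FPKM in control. At day 8 it had 0 higher and 3 lower of 7, and at days 0, 3 and 5, 0 of 3, 2 and 2 tested passed in either direction. The 7 endothelial markers had 0 higher and 1 lower of 2 tested at day 0, 1 and 0 of 2 at day 3, 0 and 0 of 1 at day 5, 0 and 3 of 6 at day 8, 0 and 4 of 6 at day 10 and 0 and 2 of 7 at day 12. The day 10 count of lower genes was 0 without control replicate 1, 1 without knockout replicate 2 or control replicate 2, and 6 without control replicate 3. Of 7 leukocyte markers with an entry, only Cd68, a lysosomal protein that is not confined to leukocytes, passed, as higher at days 0, 5, 10 and 12. The defining leukocyte gene Ptprc lay at 0.0104 ± 0.0174 FPKM in knockout and 0.109 ± 0.0573 FPKM in control at day 10. That list summed to 5.52 to 6.79 FPKM in knockout and 4.17 to 5.30 FPKM in control at day 10. In this sum Cd68 had 3.78 ± 0.621 FPKM in knockout and 1.98 ± 0.166 FPKM in control. By mean, Cd74 and Laptm5 were also higher in knockout, while Ptprc, Itgam, Tyrobp and Csf1r were lower. Of the list only Cd68 reached the minimum for a test at day 10. The 8 visceral endoderm markers had 2 higher and 0 lower of 2 at day 0, 0 and 0 of 3 at day 3, 2 and 1 of 7 at day 5, and of 8 tested 0 and 0 at day 8, 0 and 3 at day 10 and 0 and 1 at day 12. After rescaling the fibroblast list had 4 lower at day 8 and 8 at day 12, the endothelial list 4 lower at day 8 and 6 at day 10, and the endoderm list 1 higher and 1 lower at day 5 and 2 lower at day 12.

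Of 19 listed neighbours of the cluster on chromosome 7, 18 had an entry and 13 to 15 were tested. At day 0, 0 of 15 were higher and 1, the ion channel relative Ano9, lower (-0.46, limma adjusted p = 0.025), against 6.49% and 8.03% of all genes. At days 3 and 8, 0 passed in either direction. All genes had 1.09% higher and 0.668% lower at day 3, and 1.28% and 2% at day 8. At day 5 Lrrc56 (0.75, adjusted p = 0.0036) was higher, and at days 10 and 12 the proteasome gene Psmd13 (0.57 and 0.58, adjusted p = 0.0333 and 0.0414) was, with 0 lower at each of these days. That is 1 of 13 tested at each, against 7.07% (day 5), 15% (day 10) and 3.22% (day 12) of all genes called higher. Neither Psmd13 call held after rescaling (0.36 and 0.51, adjusted p = 0.155 and 0.0652). The list's median log2 fold change lay between -0.024 at day 0 and 0.27 at day 3, against -0.0091 and 0.15 for all genes at those days.

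The genes with the closest course to each member over the 36 libraries were picked by their correlation. As the best of a large search, their coefficients cannot be set against those between the members. Among the 13022 genes that averaged at least 1 FPKM, the genes close to Ifitm1 included Ubxn2b, Hist1h4f, H2afx and Aatf (Pearson r = 0.89 each, on the log2 scale). Ifitm2 was closest to Srp14, Tacc3, Krit1, Cab39l and Med19 (r from 0.90 to 0.91). Ifitm3 was closest to Gab1, Napepld, Acot7, Ckap2 and D630023F18Rik (r from 0.91 to 0.92). The sum of the 3 followed Farsb, Dr1, Ints4, Ccdc21 and Eif3d (r from 0.94 to 0.96). By Spearman's rank correlation, of these 5 genes 0 stayed among the 5 closest for Ifitm2, 1 for Ifitm3 and 3 for the sum. The points share days, lines and tables, so the coefficients describe these libraries only.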

How the data were processed

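RNA was measured in 36 libraries, 3 for each of 2 lines at 6 days. Total RNA libraries were made with ScriptSeq Complete Gold, per the labels' protocols. The deposited values are FPKM made by the authors. The submitters' processing notes name TopHat, Cufflinks and the build mm9, and the scaling between libraries or tables is not given in the sources used here. The 3 genes and all lists were chosen with earlier results of these data known. Columns were matched to libraries by name. Each day was fitted in its own table with limma 3.58.1 in R 4.3.3 on log2(FPKM + 1), for genes averaging at least 1 FPKM, with a variance trend and no block. That average is over both lines, so a gene under 1 FPKM in 1 line could be tested through the other. The F test and the mean effect used 1 model of 36 libraries. Listed genes are named where they passed the threshold, at most 4 per list and day by size of fold change, with further levels where a list is described. Some genes that this rule or the rule for similar courses would name are not reported here. Alternatives were a pseudocount of 0.1, no filter, rescaled libraries, no trend, the replicate number as a block, and leaving out each library. Counts per list under these settings were added after seeing the data. The fits were checked on simulated data with independent normal noise of each gene's own spread. That check cannot show effects of library scaling or of the filter. Promoters came from RefSeq GRCm38.p6 by symbol (3 of 3 matched). Python 3.11.15, pandas 2.3.3, numpy 2.4.6 and matplotlib 3.10.9 were used.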

Additional observations from a re-analysis of the deposited data

Results flagged for a closer look

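The knockout effect differed between days for 2 of the 3 genes by the test of the difference itself, limma's F test over the 6 days. For Ifitm3 the adjusted p was 0.000112, with a log2 fold change of -0.76 (day 0), 0.23 (day 3), 0.68 (day 5), 0.78 (day 8), 0.88 (day 10) and -0.35 (day 12). For Ifitm1 the adjusted p was 0.00254, with a log2 fold change of 0.41 (day 0), 0.70 (day 3), -0.64 (day 5), 0.019 (day 8), 1.19 (day 10) and 0.17 (day 12). Groups of 3 libraries are too small for a test of outlying libraries.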

How the results depend on the processing

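Genes called at days 0, 3, 5, 8, 10 and 12 numbered 774, 2, 424, 136, 775 and 218 without the filter on low values, which tests more genes. Rescaling gave 553 at day 3, 746 at day 8 and 4138 for the F test. The replicate numbers did not pair libraries (same-number correlations of -0.12 to 0.27, no day with every pair over 0.1). With the replicate block 824, 342 and 464 genes were called at days 0, 3 and 12, and no call of the 3 genes changed. With no filter these calls ended with the same fold change: Ifitm1 at day 0 (0.41, also with no variance trend), day 5 (-0.64) and day 10 (1.19), Ifitm2 at day 10 (0.55), and Ifitm3 at days 5, 8 and 10 (0.68, 0.78 and 0.88). Rescaling ended Ifitm3 at day 5 (0.55) and the mean effects of Ifitm1 (0.19) and Ifitm3 (0.13), turned the uncalled day 8 values of Ifitm1 (-0.096) and Ifitm2 (-0.066), and brought the Ifitm2 F test (4.63) past the threshold. The cause was not tested. Spearman kept 1, 0, 1 and 3 of 5 similar genes. Leaving out 1 library gave 797 to 1041 (day 0), 186 to 332 (day 3), 833 to 996 (day 5), 190 to 665 (day 8), 1540 to 2574 (day 10), 317 to 583 (day 12) and 1925 to 3373 (F test) called genes. Over these fits Ifitm1 ran from 0.32 to 0.49 (day 0), -0.080 to 0.12 (day 8), 0.95 to 1.52 (day 10) and -0.082 to 0.42 (day 12). Ifitm2 ran from -0.054 to 0.074 (day 0), 0.44 to 0.64 (day 10), -0.16 to 0.041 (day 12), 1.80 to 4.24 (F) and 0.089 to 0.16 (mean effect, past the threshold without control replicate 3 of day 3, adjusted p = 0.0231). Ifitm3 ran from -0.077 to 0.49 (day 3), 0.54 to 0.89 (day 5) and 0.68 to 0.87 (day 8). The pseudocount of 0.1 changed no call of the 3 genes. Unknown depth limits what can be said of Ifitm5, Ifitm6 and Ifitm7.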

Other observations

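Proteins known to bind or modify IFITM3, mostly from human cells, were measured with it. Of the 9 listed, all of them tested at each day, 0 were higher and 1 lower at day 0, 0 and 0 at day 3, 1 and 0 at day 5, 0 and 0 at day 8, 1 and 0 at day 10 and 0 and 0 at day 12, by limma's test. All genes had 6.49% higher and 8.03% lower at day 0, 7.07% and 3.32% at day 5, and 15% and 5.12% at day 10. Their shares were 1.09% and 0.668% at day 3, 1.28% and 2% at day 8, and 3.22% and 3.48% at day 12. The gene lower at day 0, together with Ifitm3, was Cd9, a tetraspanin of the cell surface, with 88.8 ± 4.49 FPKM in knockout and 116 ± 7.20 FPKM in control (log2 fold change -0.39, adjusted p = 0.0099). Setd7, which methylates IFITM3, was higher at day 5 (0.42, adjusted p = 0.0397, lost after rescaling at 0.29, adjusted p = 0.0773). Rescaling turned the day 5 count to 0 higher and 1 lower, the lower gene being Zdhhc20, which attaches palmitate to IFITM3 (-0.45, adjusted p = 0.0159, against -0.32 and adjusted p = 0.0688 as deposited). Vapb, a membrane contact protein, was higher at day 10 as deposited (0.53, adjusted p = 0.0235) and after rescaling (0.33, adjusted p = 0.0287).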
